A study of Mus musculus with 2 samples.

Results

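Guanylate-binding proteins (GBPs) are large GTPases, and the 8 mouse genes Gbp2, Gbp3, Gbp4, Gbp5, Gbp6, Gbp7, Gbp8 and Gbp9 were followed here among 15495 genes measured on both arrays of the series. Members were chosen by name, through the RefSeq accession of each non-control probe, and 9 of 39429 probes belonged to them, 2 for Gbp6 and 1 for each other gene. All 8 genes were well above background on both arrays, so none was lost to the filter on dim probes. The series compared C57BL6/N whole lung with whole lung of the same strain carrying a transgene for overexpression of HSP27. HSP27 is the small heat shock protein encoded by Hspb1. Both groups received bleomycin, a drug that scars the lung when given into the airways, at 1.25 mg/kg, and both were taken at day 14, labelled male and 6 weeks of age. There was no array of untreated lung. The labels give neither the promoter that drives the transgene nor its species, nor whether a sample holds 1 animal or a pool. Each group has 1 array, so the values below carry no error from biological replicates and the groups could not be tested against each other.

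GBPs are among the genes most strongly induced by interferon gamma in mouse macrophages, endothelial cells and fibroblasts. The cytokine binds the receptor chains encoded by Ifngr1 and Ifngr2, the kinases Jak1 and Jak2 pass the signal on, and target genes carry GAS elements or ISRE elements, the latter bound by interferon regulatory factors such as Irf1. The proteins then assemble on the membranes of bacteria and of vacuoles that hold parasites, often together with the immunity-related GTPases (IRGs), and help to open those vacuoles or to activate inflammasomes. In the mouse genome the family lies in a cluster on chromosome 3 and another on chromosome 5.

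The RefSeq promoter table (build GRCm38.p6, 250 bases before to 50 after each transcript start) held 4 of the 8 members, Gbp2, Gbp3, Gbp5 and Gbp7, and the family gene Gbp2b. Their letters are shown because each window holds the element that these genes share with other interferon targets. The stretches of 50 bases below run in the direction of transcription, with matches to the ISRE core (GAAA, any 2 bases, GAAA) or to the GAS motif TTCNNNGAA on either strand in capitals. They lie at chr3:142496749-142496798 for Gbp5, chr3:142530263-142530312 for Gbp7, chr3:142559979-142560028 for Gbp3, chr3:142594690-142594739 for Gbp2b and chr3:142620584-142620633 for Gbp2, all on the plus strand.
Gbp5: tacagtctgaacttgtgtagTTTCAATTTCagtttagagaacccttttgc
Gbp7: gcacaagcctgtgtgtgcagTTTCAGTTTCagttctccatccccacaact
Gbp3: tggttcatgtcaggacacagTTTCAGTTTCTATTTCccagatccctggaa
Gbp2b: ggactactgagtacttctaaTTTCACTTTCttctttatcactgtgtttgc
Gbp2: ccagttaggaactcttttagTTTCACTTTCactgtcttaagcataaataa

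The same search in IRG promoters gave the windows chr11:58199502-58199551 (plus strand) for Igtp, chr11:58214893-58214942 (plus strand) for Irgm2 and chr11:48871421-48871470 (minus strand) for Irgm1. They are shown because IRGs are the partner GTPases of the GBPs, and whether motif spacing goes with a difference on the arrays was not tested.
Igtp: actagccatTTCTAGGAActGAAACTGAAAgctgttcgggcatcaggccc
Irgm2: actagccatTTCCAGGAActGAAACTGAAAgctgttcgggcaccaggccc
Irgm1: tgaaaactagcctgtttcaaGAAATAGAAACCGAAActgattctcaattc

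All 5 GBP genes with a promoter entry held an ISRE core, against 3.99% of 27025 genes and 3.44% of 32851 promoter windows of the same length. In each of the 5 the core lay in the reverse complement of the letters searched. It began 59 bases before the start in Gbp2, 53 in Gbp7, 165 in Gbp5 and 137 in Gbp2b, and Gbp3 held 2 overlapping cores that began 45 and 39 bases before it. A second promoter window of Gbp3 held neither motif. GAS matches, present in 9.55% of genes and 8.30% of all windows, were found in Gbp5 and Gbp7 but not in the windows of Gbp2, Gbp3 or Gbp2b. Among 11 IRG genes with a promoter entry, 7 held an ISRE core and 5 a GAS match. In the IRG genes Igtp, Irgm2, Tgtp1 and Tgtp2 the GAS match ended just before the ISRE core, an arrangement that the 5 GBP windows did not hold. Irgm1 held no GAS match. No ISRE match overlapped a GAS match in the genes drawn. A match describes letters and is not evidence that a factor binds there.

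**Figure D1:**
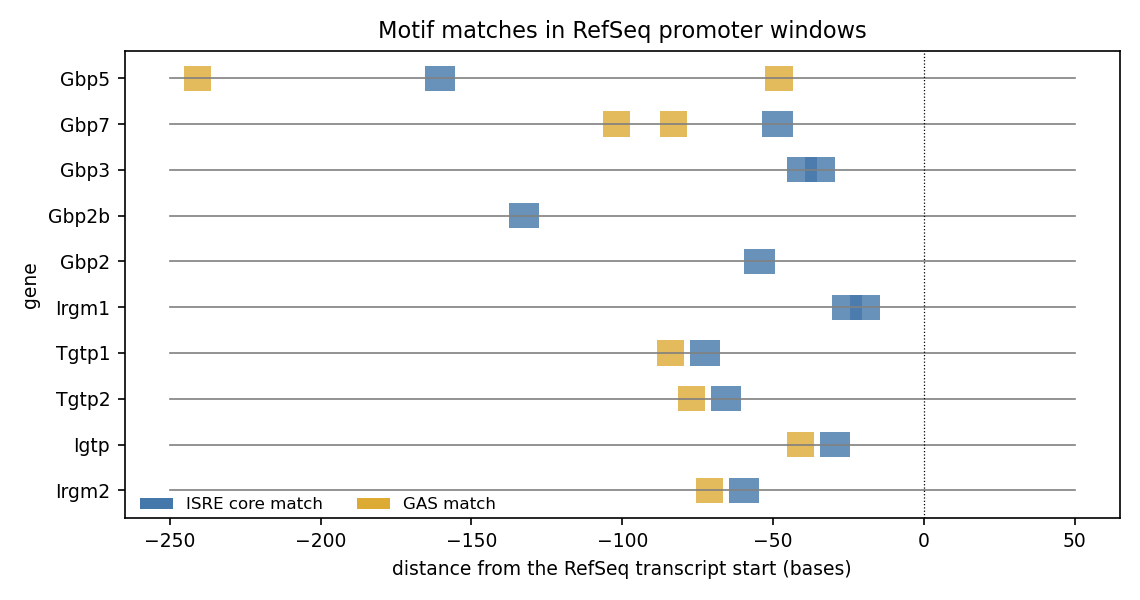
ISRE core matches (blue) and GAS matches (yellow) along RefSeq promoter windows, plotted as distance in bases from the transcript start; 1 window per gene is drawn, for 5 GBP and 5 IRG genes. The ISRE core lies 53 bases before the start in Gbp7 and 59 in Gbp2, and farther upstream in Gbp5 (165) and Gbp2b (137). IRG genes without an ISRE core, such as Ifi47, are not drawn.

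Signals are given as the processed fluorescence of each probe in arbitrary units, then as the log2 difference between the transgenic and the C57BL6/N array after each was divided by its own 75th percentile of signal. That percentile was 1287 for C57BL6/N and 1426 for transgenic lung. Of all probes, 69.3% and 69.4% were well above background, and no spot was saturated. The SD of the difference between repeat spots was 0.05 for the brightest, 0.06 for the middle and 0.12 for the dimmest of 3 brightness groups, which is technical spread alone. In transgenic lung all 11 lung epithelial markers were measured. Sftpc, a surfactant gene of alveolar epithelium, was at a level of 8.05 (log2, relative to the 75th percentile) and a difference of -0.40. The median difference of the 11 was -0.35, and 1 was at least 1.5-fold lower, where 8.31% of all genes were. The transgenic array also read higher for cardiac muscle (median difference 3.41 over 9 genes, Myh6 at 7.09), fat (5.27 over 5 genes, Cfd at 9.62) and basal airway cell markers (3.57 over 5 genes, Krt5 at 5.87). Probes for Xist, transcribed from the silenced X chromosome in females, read 521 and 330 in C57BL6/N lung but stayed at background level in transgenic lung, although both samples were labelled male. The Y-linked Ddx3y, Uty and Eif2s3y differed by 2.11, 1.93 and 1.91. In C57BL6/N lung, where Xist was read, Ddx3y (508) and Eif2s3y (800) were also well above background. There Uty was dim, at a level of -6.23, and Kdm5d was not well above background. The part of these differences in the results below was not tested. Hspb1 read 41040 and 53554, a difference of 0.24 (1.18-fold higher) and within the middle 95% of all genes, so its single mouse probe does not by itself bear out the overexpression label. Whether that probe can detect the transgene is unknown, as its species is not in the labels.

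Most GBP genes read lower in the transgenic lung. Of the 8 members, 7 were below 0 and 1 above, with a median difference of -0.49 (1.41-fold lower), while 54.0% of all genes were below 0 with a median of -0.04. At 1.5-fold, 3 of 8 members were lower (Gbp3, Gbp4 and Gbp9), against a background of 8.31% of genes, and 0 of 8 were higher, against 10.2%. At 2-fold, Gbp4 alone was lower, against 1.87% of genes, and 0 were higher, against 3.81%. Cyclic loess moved the split of all 1.5-fold calls from 55.1% to 66.5% higher, and under it Gbp3 and Gbp4 remained at least 1.5-fold lower. Median scaling gave 1 member at least 1.5-fold lower, Gbp4.

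Gbp4 had the lowest difference among the members. Its probe read 2597 ± 260 (the scanner software's error estimate, n = 1) in C57BL6/N lung and 1011 ± 101 in transgenic lung. The difference was -1.51, or 2.85-fold lower, and 0.316% of all measured genes had a lower one. Under the 9 alternative processings it stayed between -1.51 and -1.46. Gbp4 is encoded on chromosome 5 and was formerly called Mpa2, and the reference table also gives Gbp4 as an older name of Gbp3, so probes were told apart by accession.

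Gbp6, from the same chromosome 5 cluster, gave discordant probes. The brighter probe read 1191 ± 119 in C57BL6/N lung and 611 ± 61.2 in transgenic lung, a difference of -1.11. The dimmer probe, assigned to the same transcript, read 124 ± 12.7 and 143 ± 14.6, a difference of 0.06. The gap of 1.17 between them was wide: among 3413 genes with 2 usable probes the median gap was 0.24, and 2.17% had a gap at least as large. The mean over both probes, used as the gene's value, was -0.53, just short of 1.5-fold, so the count of lower members rests for Gbp6 on which probe is taken. With the brightest probe alone, 4 of 8 members were at least 1.5-fold lower. GBP genes of this cluster are close relatives, and which transcripts each probe can bind was not examined here, so Gbp6 values are uncertain.

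Gbp9, between Gbp8 and Gbp4 in gene order, read 487 ± 48.8 in C57BL6/N lung and 359 ± 36.0 in transgenic lung. Its difference of -0.59 lay at the threshold, with a repeat-spot SD of 0.12 at this brightness, and it was -0.51 with cyclic loess, -0.53 with median scaling and -0.45 with normexp background correction. Gbp8 was the member that read higher in the transgenic lung. Its dim probe gave 52.2 ± 6.23 and 75.9 ± 8.40, a difference of 0.39, and this value ranged from 0.17 to 0.53 over the alternatives. On chromosome 5, then, the 4 members spread from -1.51 to 0.39, with a median of -0.56.

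The 4 members on chromosome 3 differed less among themselves. Gbp3 read 4108 ± 411 in C57BL6/N lung and 2926 ± 293 in transgenic lung, a difference of -0.64 (1.56-fold lower). Gbp7, which in mouse macrophages acts in the delivery of oxidase components to bacterial vacuoles, read 583 ± 58.3 and 470 ± 47.1, a difference of -0.46. Gbp5, which in mouse macrophages promotes activation of the Nlrp3 inflammasome, read 794 ± 79.4 and 692 ± 69.3, a difference of -0.35. Gbp2, which coats vacuoles of Toxoplasma and bacteria, read 5194 ± 519 and 4641 ± 464, a difference of -0.31. Each of these differences exceeded the repeat-spot SD of 0.05 to 0.06, but 23.5% of all genes had a lower difference than Gbp2 and 20.8% a lower one than Gbp5. The median of the 4 was -0.40, and Gbp3 was the 1 member past 1.5-fold.

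**Figure D2:**
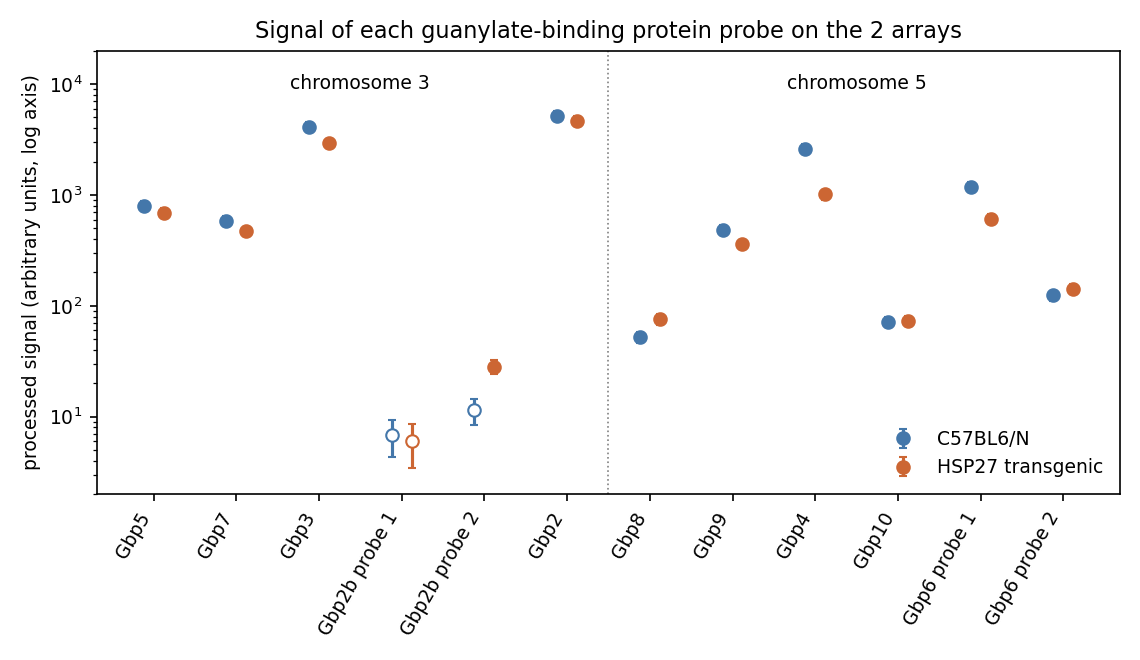
Processed signal of every GBP probe (arbitrary units, log axis) on the C57BL6/N array (blue) and the transgenic array (orange); bars are the scanner software's error estimate and open symbols mark spots not well above background. Gbp4 (2597 and 1011) and the brighter Gbp6 probe (1191 and 611) are lower in transgenic lung, whereas the dimmer Gbp6 probe (124 and 143) and Gbp8 (52.2 and 75.9) are not.

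Of the remaining GBP genes of the mouse, Gbp10 was measured on both arrays. This gene, beside Gbp6 on chromosome 5, read 72.1 ± 7.61 in C57BL6/N lung and 73.2 ± 7.75 in transgenic lung, a difference of -0.13, about the repeat-spot SD of 0.12. Gbp2b, the gene long known as Gbp1, had 2 probes. One stayed below the detection call on both arrays (6.82 and 6.03), and the other read 11.4 in C57BL6/N lung, below that call, and 28.3 in transgenic lung, above it. This is a bound of at least 2.14-fold higher, taken against the lowest detected signal of the C57BL6/N array (11.9). Gbp2b was therefore not counted as measured. Gbp11 was matched by no probe.

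Genes that flank the clusters were read next, a choice made after the GBP values were seen. Around the chromosome 3 cluster, the 4 nearest measured protein-coding genes on each side had a median of -0.01, from -0.84 for Kyat3 to 0.71 for Bmpr1b, and 3 of the 8 were at least 1.5-fold lower (Kyat3, Pkn2 and Pdlim5). Around the chromosome 5 cluster the median of 8 was 0.05, from -0.996 for Lrrc8b to 2.29 for Spp1, the secreted matrix protein osteopontin. There, 2 were at least 1.5-fold lower (Lrrc8b and Thoc2l). On each chromosome 1 of the 8 was at least 1.5-fold higher, and over all genes 8.31% were lower and 10.2% higher. No flanking gene was as low as Gbp4 (-1.51).

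**Figure D3:**
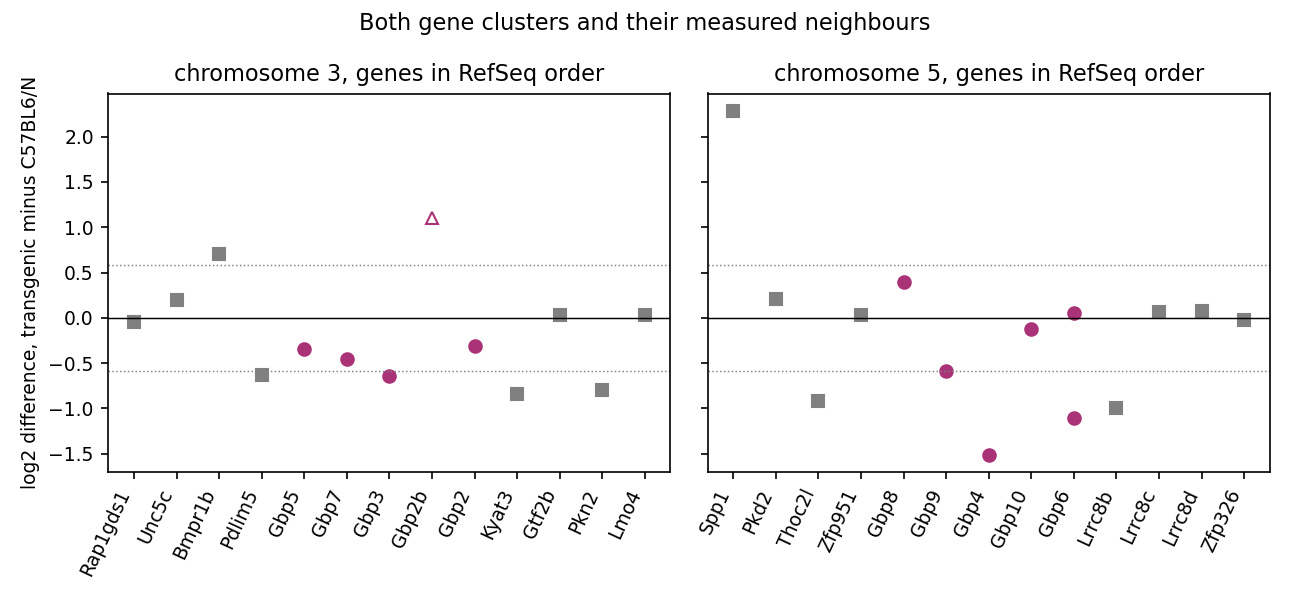
Log2 difference (transgenic minus C57BL6/N) of each usable GBP probe (purple circles) and of flanking genes (grey squares) in RefSeq gene order; the triangle is the lower bound for Gbp2b and dotted lines mark 1.5-fold. Chromosome 3 members lie between -0.64 and -0.31, chromosome 5 members between -1.51 and 0.39.

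Other GTPase families induced by the same cytokine did not read alike. Gvin1, a very large interferon-inducible GTPase, was lower like most GBPs: its probes read 4713 and 4526 in C57BL6/N lung and 3128 and 3545 in transgenic lung, with differences of -0.74 and -0.50. IRG genes, whose products load onto the same vacuoles as GBPs, were centred at 0.34 (median of 12 measured), and 3 passed 1.5-fold upward against 0 downward, where 10.2% and 8.31% of all genes did. With normexp 0 passed upward, and with the brightest probe per gene 1 passed upward and 1 downward. Iigp1, an effector IRG, was at 0.67 and 0.57 at its probes, Tgtp1 at 0.996 from a dim probe (35.4 and 78.3) and Gm5431 at 0.70, the mean of probes at 0.18 and 1.21. Irgm1, a regulator of the other IRGs, was at 0.35, Ifi47 at 0.34 and Gm4951 at 0.37. Igtp, also a regulator, was printed in 10 spots with differences from -0.10 to 0.07 (SD 0.04) and a mean of -0.02. Irgm2 (-0.16), Gm12250 (-0.12), Tgtp2 (-0.02) and 9930111J21Rik1 (-0.47) were at or below 0. Irgq, a family member not known as an interferon target, was at 0.45. Detection in transgenic lung alone was found for 9930111J21Rik2 (at least 1.64-fold higher) and Irgc1 (at least 11.8-fold higher). Whether interferon gamma induces either gene in lung was not tested. Over the alternatives the IRG median stayed between 0.21 and 0.40 and that of the GBPs between -0.52 and -0.41, but the difference between the families was not tested. The atlastins, relatives of the GBPs that shape the endoplasmic reticulum, were at 0.22 (Atl1), 0.05 (Atl2) and -0.52 (Atl3).

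Genes for interferon gamma, its receptor chains and its kinases showed small differences, but Ifng was dim, at a level of -4.56 in C57BL6/N lung. Ifng read 54.5 in C57BL6/N lung and 67.3 in transgenic lung, a difference of 0.16. The repeat-spot SD was 0.12 at this brightness, so the value says little about the cytokine. The receptor chains Ifngr1 and Ifngr2 were at -0.21 and -0.32 and the kinases Jak1 and Jak2 at 0.22 and 0.07. Each of these genes was within 1.5-fold. Among 9 transcription factors and co-activators none passed 1.5-fold. Of these, 8 of 9 were below 0 (median -0.17), where 54.0% of all genes were (median -0.04). Irf1 read 19067 and 14506, a difference of -0.54, and any part of it in the GBP values was not tested. The MHC class I activator Nlrc5 was at -0.35, Irf9 at -0.26, Stat2 at -0.24, Irf8 at -0.17, Irf2 at -0.15, the class II activator Ciita at -0.15, Batf2 at -0.14 and Stat3 at 0.25. Of 8 negative regulators, where 10.2% of all genes were higher and 8.31% lower, Socs3 (1.34) and Socs1 (0.69), inhibitors of the kinases, were at least 1.5-fold higher and 0 were lower.

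Upstream of interferon gamma, 2 of 10 measured genes were at least 1.5-fold lower and 0 higher, against 8.31% and 10.2% of all genes. These were Eomes (-1.06) and Tbx21 (-0.69), transcription factors of NK cells and type 1 helper T cells. The inducing cytokines Il18 (0.21), Il15 (0.27) and Il27 (0.07) and the receptor genes Il18r1 (0.17), Il18rap (0.17), Il12rb1 (-0.09) and Il12rb2 (0.34) were within 1.5-fold, as was Stat4 (-0.12). Il12a was not well above background on either array.

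Other interferon gamma-induced effectors held both higher and lower genes. The median of 12 measured was 0.37, and 4 passed 1.5-fold upward, 1 downward and 7 in neither direction, where 10.2% of all genes passed upward and 8.31% downward. Ubd, a ubiquitin-like modifier, was at 2.17, the chemokine Cxcl10 at 1.95 (655 and 2810) and Cxcl9 at 1.61, and the antibody receptor Fcgr1 at 1.13. Tnfsf10, the death ligand TRAIL, read 5473 and 2960, a difference of -1.03. Nos2 (0.32), Cd274 (0.07), Wars (0.28), Icam1 (0.34), Cybb (0.40), Slamf8 (0.51) and Fas (-0.11) were within 1.5-fold, and Ido1 was not well above background on either array. The 14 genes of MHC class I presentation were all within 1.5-fold (median -0.09). Of 9 class II genes 2 were higher, H2-DMa (0.94) and H2-Aa (0.61), and 0 lower (median 0.13). Of 27 type I interferon-stimulated genes 5 were higher, among them Oas3 (1.14) and Irf7 (0.98), and 1 lower, Cmpk2 (-0.67), with a median of 0.13.

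Partners of GBP function were read from the same arrays, again against 10.2% of all genes higher and 8.31% lower. Among 8 measured inflammasome genes, Casp1 (0.76) and Pycard (0.70), the protease and the adaptor, were at least 1.5-fold higher and 0 were lower (median 0.03). Casp4, the sensor protease for lipopolysaccharide that acts with GBPs, was at 0.43, Aim2, a DNA sensor, at 0.05, Nlrp3 at -0.39 and Gsdmd, the pore-forming substrate, at -0.10. Of 15 autophagy and galectin genes of GBP recruitment, 3 were higher (Sqstm1 at 0.77, Atg3 at 0.68 and Gabarap at 0.61) and 0 lower, with a median of 0.16. The Gabarap value is the mean of a dimmer probe at 1.02 and a brighter probe at 0.20, so its call rests on averaging.

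**Figure D4:**
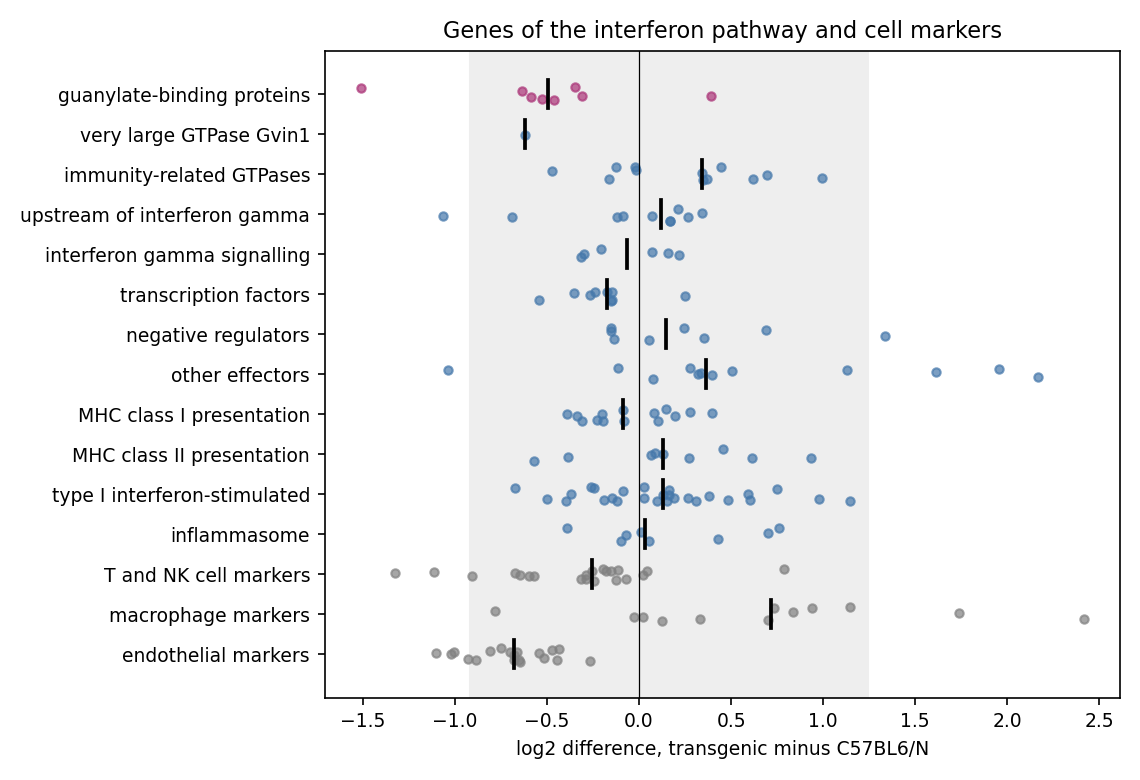
Log2 difference of each measured gene of the interferon lists (blue), the GBP members (purple) and cell markers (grey), with list medians as black bars and the central 95% of all genes (-0.92 to 1.24) shaded. The GBP median is -0.49, the IRG median 0.34 and that of the other effectors 0.37.

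Cell types that make GBPs or interferon gamma also differed between the arrays. In whole lung, fewer cells of a type and less RNA per cell cannot be told apart. Over all genes, 10.2% were at least 1.5-fold higher and 8.31% lower. All 19 endothelial markers were measured, 13 were at least 1.5-fold lower and 0 higher (median -0.68, with Tie1 at -1.10 and Cldn5 at -1.02), and their summed scaled signal was 398 in C57BL6/N lung and 244 in transgenic lung. Of 21 T and NK cell markers, 6 were lower and 1 higher (median -0.25), with Ncr1 at -1.32, the granzyme Gzma at -1.11 and Xcl1 at 0.79. Their summed scaled signal was 31.5 and 21.3, a sum in which Gzma and the chemokine Ccl5 (-0.67) weigh most, while the T cell receptor genes Cd3e, Cd3d and Cd3g were at -0.15, -0.18 and -0.13 and Cd4 at -0.11. Every marker of both lists was measured on both arrays, but a second Cd4 probe (13.7 and 11.6) was not well above background in transgenic lung. Ncr1 was dim, at levels of -4.66 and -5.98. Of 12 measured macrophage markers, 7 were higher, among them C1qb (2.41) and C1qa (1.74), and 1 lower (Marco, -0.78). Their summed scaled signal was 155 and 181, of which Chil3 (-0.02) made up 91.3 and 89.8. Of 10 fibroblast markers, 5 were higher, with Acta2 at 1.51, and 0 lower. The part of these marker differences in the GBP values was not tested.

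Direction was the same for all 8 members under each of the 9 alternative processings run, but several of these could hardly change it. Both changes of the filter on dim probes left every member value as it was. Retained outlier spots and the deposited table shifted all members by the same small amount (Gbp4 from -1.510 to -1.511). Use of the brightest probe could move Gbp6 only. Gbp2 stayed between -0.31 and -0.26, Gbp3 between -0.64 and -0.58, Gbp5 between -0.39 and -0.28 and Gbp7 between -0.46 and -0.38. Gbp6 had the widest range, from -1.11 with its brightest probe to -0.44 with cyclic loess.

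**Figure D5:**
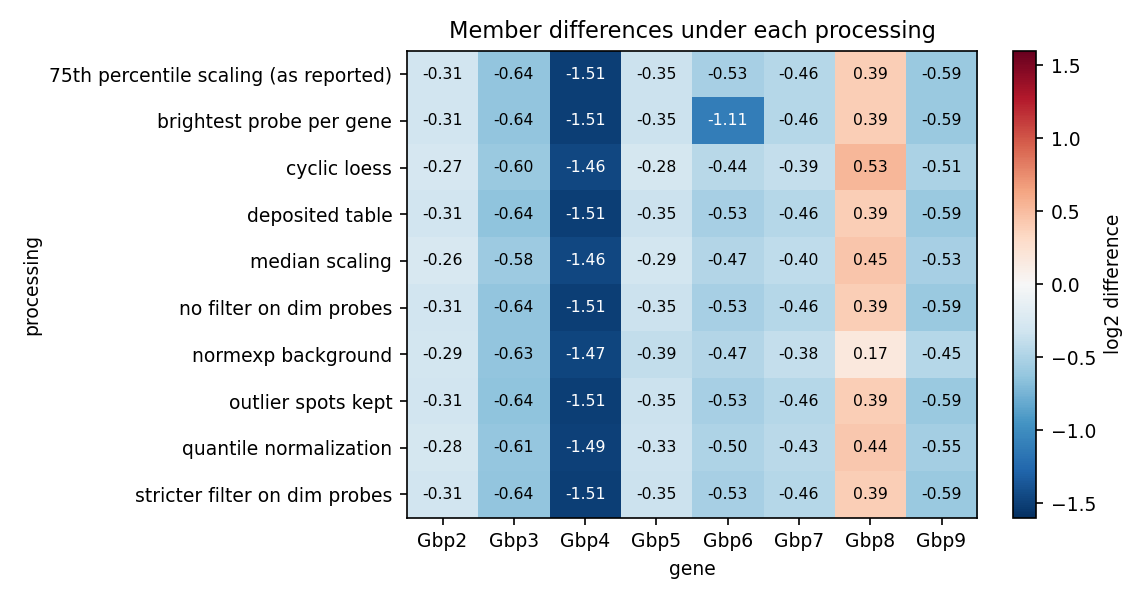
Log2 difference (transgenic minus C57BL6/N) of the 8 members (columns) under the reported processing and 9 alternatives (rows); blue is lower and red higher in the transgenic lung. Gbp4 stays between -1.51 and -1.46, and Gbp8, between 0.17 and 0.53, is the member above 0.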

How the data were processed

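The deposited scanner files hold, per the file headers, spot fluorescence intensity (1 colour, Cy3) from Agilent Feature Extraction 11.5.1.1, corrected for background and for trends across the slide, array by array, with no normalization between arrays. The deposited table of the series is an intensity on a linear scale that equalled the processed signal within 0.1% for 39012 of 39012 probes with 1 spot on each array. Both arrays shared a slide and a scan. RNA came from a Trizol extraction, per the labels.

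Signals of the remaining spots, without controls and flagged outliers, entered on the log2 scale as one mean per probe, less the 75th percentile of that array's non-control probes. Probes with a saturated spot, or with under 50% of spots called well above background, on either array were not used. Genes with several usable probes were given the mean. Accessions were matched without version to RefSeq symbols of GRCm38.p6, covering 69.8% of probes. The arrays were designed on mm9, so that table gave names and gene order, and coordinates come from the RefSeq promoter table alone. With 1 array per group no p-value was computed. Counts use 1.5-fold and 2-fold. The steps were tested on simulated data.

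The members and the other 24 gene lists were chosen with earlier results of these data known. Named were all members, all measured genes of the other GBP, IRG and interferon gamma signalling, factor, upstream and effector lists, and up to 2 highest and 2 lowest genes past 1.5-fold of the rest. Some genes outside this rule (Casp4, Aim2, Nlrp3, Gsdmd, Gabarap, Sftpc, Ccl5, Cd3e, Cd3d, Cd3g, Cd4, Chil3, the sex-linked genes, the atlastins and the flanking genes) were named after their values were seen. A gene of the signalling list is not reported here. Software was Python 3.11.15, numpy 2.4.6, pandas 2.3.3, matplotlib 3.10.9, R 4.3.3 and limma 3.58.1. The alternatives were median scaling, quantile normalization, cyclic loess, normexp (offset 50), no and a stricter filter on dim probes, retention of outlier spots, use of the brightest probe alone and the deposited table.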

Additional observations from a re-analysis of the deposited data

How the results depend on the processing

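The number of arrays limits every value: no difference could be set against a spread between animals, and leaving out a replicate was not possible. No paired analysis was possible because each group has 1 array. The median difference of the GBP genes (-0.49) was -0.41 with cyclic loess and -0.42 with normexp, and lay between -0.52 and -0.41 over the 9 alternatives. The count of members at least 1.5-fold lower (3) was 1 with median scaling and ranged up to 4. The count of higher members was 0 throughout the 9 alternatives. Over all genes, 1582 higher and 1287 lower became 2526 and 2080 without the filter on dim probes, which tests more genes (20878 in place of 15495), and 980 and 682 with normexp, for which the cause was not tested. The normexp fit used median signals, since the files hold no mean signal, and left out spots whose local background reached their signal. Probes of the dimmest brightness group (Gbp8, Gbp9, Gbp10, Gbp2b and the dimmer Gbp6 probe) have the largest technical spread.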
